A study of Homo sapiens with 2 samples.

Results

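The Wnt genes examined here are 55 genes for ligands, receptors, secreted antagonists, cytoplasmic signal carriers and nuclear factors of canonical and noncanonical Wnt signalling. They were found by gene symbol in the platform annotation of an Affymetrix expression array. Of the 55, 51 had at least 1 probe set that carries their symbol alone, out of 19775 genes so named on the array, and these genes had 129 probe sets. WNT3 and FZD8 were read only by probe sets that name another gene as well and were given no value, and TCF7 and PORCN, the acyltransferase that Wnt ligands need for secretion, were not analysed here.

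The array labelled C4-2B-MDVR was compared with the array labelled C4-2B. C4-2B is a line of human prostate cancer cells that enzalutamide, an inhibitor of the androgen receptor, holds back, and C4-2B-MDVR is an enzalutamide-resistant line derived from it by long drug exposure. Both lines were untreated and were grown in RPMI-1640 with 10% fetal bovine serum, penicillin and streptomycin, and 100 ng of total RNA was amplified for each array. The study sought genes responsible for the resistance, with 1 array per line. The free-text description of the resistant sample names a docetaxel-resistant line called TaxR, and that of the C4-2B sample calls those cells docetaxel sensitive, while title, source and cell line fields agree on C4-2B-MDVR and C4-2B, so every direction given here rests on those fields.

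With 1 array per line differences could not be set against replicate error, and no p-value, SD or SE is given. Values are the deposited intensities, on a linear scale, and each difference is the log2 value of C4-2B-MDVR less that of C4-2B. A gene counted as above the floor when the brighter of its values reached that array's median over all 54675 probe sets, 43.5 for C4-2B-MDVR and 41.9 for C4-2B. Where several probe sets read 1 gene, the one with the highest mean stood for it, and differences of 1 or more on the log2 scale are called 2-fold or more. Intensities of different probe sets are not comparable with each other, so only the 2 arrays are compared within a probe set. RNA came from whole cultures, so fewer cells that express a gene and less RNA per cell cannot be told apart.

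Prostate epithelial markers were present on both arrays. The prostate homeobox gene HOXB13 had an intensity of 1950 in C4-2B-MDVR and 1879 in C4-2B, and the luminal keratin KRT18 had 4038 in C4-2B-MDVR and 4337 in C4-2B. All 13 luminal markers measured were above the floor, of which 3 (KLK3, KLK2 and SLC45A3) were 2-fold or more lower and 0 higher. KLK3, the androgen-induced gene for prostate-specific antigen, had 172 in C4-2B-MDVR and 8379 in C4-2B, and KLK2 had 295 in C4-2B-MDVR and 1263 in C4-2B. SLC45A3, a transporter of prostate cells, had 102 in C4-2B-MDVR and 1091 in C4-2B, whereas KLK4, of the same family as KLK3, differed by 0.43. Probe sets above the floor spanned -6.24 to -0.35 for KLK3 and -2.37 to -0.88 for KLK2. For FOXA1, within 2-fold by the probe set that stood for it, another differed by -1.18. Of the markers of other cells, 4 of 8 for fibroblasts, 2 of 4 for endothelium and 2 of 4 measured for blood were above the floor, and 0 of these 8 were beyond 2-fold, although another COL1A1 probe set differed by 1.20. The neuronal enolase ENO2 was the 1 gene beyond 2-fold among 3 neuroendocrine markers above the floor, with 231 in C4-2B-MDVR and 33.2, under the floor, in C4-2B. The others did not share this, as SYP differed by -0.35 and NCAM1 by 0.08, and CHGA and INSM1 were under the floor on both arrays. Among 3 basal markers measured, 1 (KRT5) was above the floor and differed by -0.23. The part of these shifts in the Wnt values was not tested.

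Wnt ligands are secreted lipid-modified proteins that bind Frizzled receptors. With the co-receptors LRP5 or LRP6, the canonical branch halts the breakdown of beta-catenin by a complex of AXIN, APC and GSK3B, and beta-catenin then enters the nucleus and acts with TCF and LEF factors on target genes. Noncanonical branches run through Frizzled, ROR or RYK receptors to cell polarity and calcium signals without beta-catenin. In prostate the pathway is known for its part in gland development and for crosstalk with the androgen receptor in cancer.

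The promoters of the genes that were 2-fold or more higher in C4-2B-MDVR are shown where RefSeq sequence was at hand. That holds for DKK1, LEF1 and both annotated starts of WNT5A, and not for FZD2 and FZD7. The promoters were chosen by the call, and shared regulation of these genes was not tested. Each window runs from 250 bases before to 50 bases after the annotated start (RefSeq, GRCh38.p14), read 5′ to 3′ on the gene's strand. Capitals mark TCF/LEF cores, searched on both strands, which are CTTTGAT and its variants ending otherwise, that is CTTTGTT along with CTTTGAA as well as CTTTGTA.
DKK1, chr10:52314031-52314330, plus strand: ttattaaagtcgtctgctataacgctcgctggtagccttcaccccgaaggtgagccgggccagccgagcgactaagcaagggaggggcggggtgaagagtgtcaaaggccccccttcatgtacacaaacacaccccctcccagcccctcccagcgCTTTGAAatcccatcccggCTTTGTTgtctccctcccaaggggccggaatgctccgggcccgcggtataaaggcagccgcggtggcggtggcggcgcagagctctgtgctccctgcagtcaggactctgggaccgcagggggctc
LEF1, chr4:108166252-108166551, minus strand: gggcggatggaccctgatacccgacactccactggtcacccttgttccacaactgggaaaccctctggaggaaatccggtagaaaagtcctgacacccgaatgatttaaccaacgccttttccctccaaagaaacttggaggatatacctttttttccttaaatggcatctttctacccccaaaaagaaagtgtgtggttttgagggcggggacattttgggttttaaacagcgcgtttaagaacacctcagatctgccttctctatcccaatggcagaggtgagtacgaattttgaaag
WNT5A, first start, chr3:55487257-55487556, minus strand: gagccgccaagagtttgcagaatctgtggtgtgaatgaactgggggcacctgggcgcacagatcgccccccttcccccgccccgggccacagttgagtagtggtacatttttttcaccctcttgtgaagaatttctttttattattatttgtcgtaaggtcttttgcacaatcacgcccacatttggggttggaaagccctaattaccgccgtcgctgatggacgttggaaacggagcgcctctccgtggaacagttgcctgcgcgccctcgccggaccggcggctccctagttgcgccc
WNT5A, second start, chr3:55481349-55481648, minus strand: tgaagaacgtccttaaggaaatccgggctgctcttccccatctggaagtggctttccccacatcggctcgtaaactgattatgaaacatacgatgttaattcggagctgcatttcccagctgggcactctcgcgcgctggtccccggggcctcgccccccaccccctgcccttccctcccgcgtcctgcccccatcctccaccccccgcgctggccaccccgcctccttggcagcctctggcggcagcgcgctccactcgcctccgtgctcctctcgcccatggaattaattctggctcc
The DKK1 window held 2 cores on the plus strand that did not overlap, CTTTGAA at -95 and CTTTGTT at -76 from the start. The LEF1 window and both WNT5A windows held none of these letters. Over all 35116 promoter windows of the table, 13.8% held at least 1 of the cores and 1.58% held 2 or more. Of 50 windows of 40 listed Wnt genes, 5 held a core. The palindromic core of the androgen response element was in 0 of the 50 windows and in 1 window of the whole table. A match of letters describes the sequence and is not a measured binding site.

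By gene, the array labelled C4-2B-MDVR had higher WNT5A, FZD2, FZD7, DKK1 and LEF1. These are a ligand, 2 related receptors, a secreted antagonist and a nuclear factor. Of the 37 Wnt genes above the floor these were the 5 that were 2-fold or more higher, and 0 were 2-fold or more lower. These 5 were 13.5% of the Wnt genes read, and the share of all 13437 named genes above the floor called in the same way was 3.17% higher and 3.50% lower. The Wnt genes were chosen with earlier results of these data known, so these shares are a description and not a test. By bound, with values under the floor taken at the floor, the Wnt counts were again 5 and 0, and the shares of all named genes were 2.76% higher and 3.14% lower. Among the Wnt genes above the floor 22 differences were above 0 and 15 below 0, and 28 were smaller than 0.5 in size. Of the 13437 named genes above the floor, 7409 were above 0 and 10407 were smaller than 0.5 in size, so these Wnt counts lay near the general share. Their median difference was 0.20, beside 0.04 for all named genes above the floor. The other 14 measured genes were under the floor on both arrays and are accounted for by group.

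**Figure D1:**
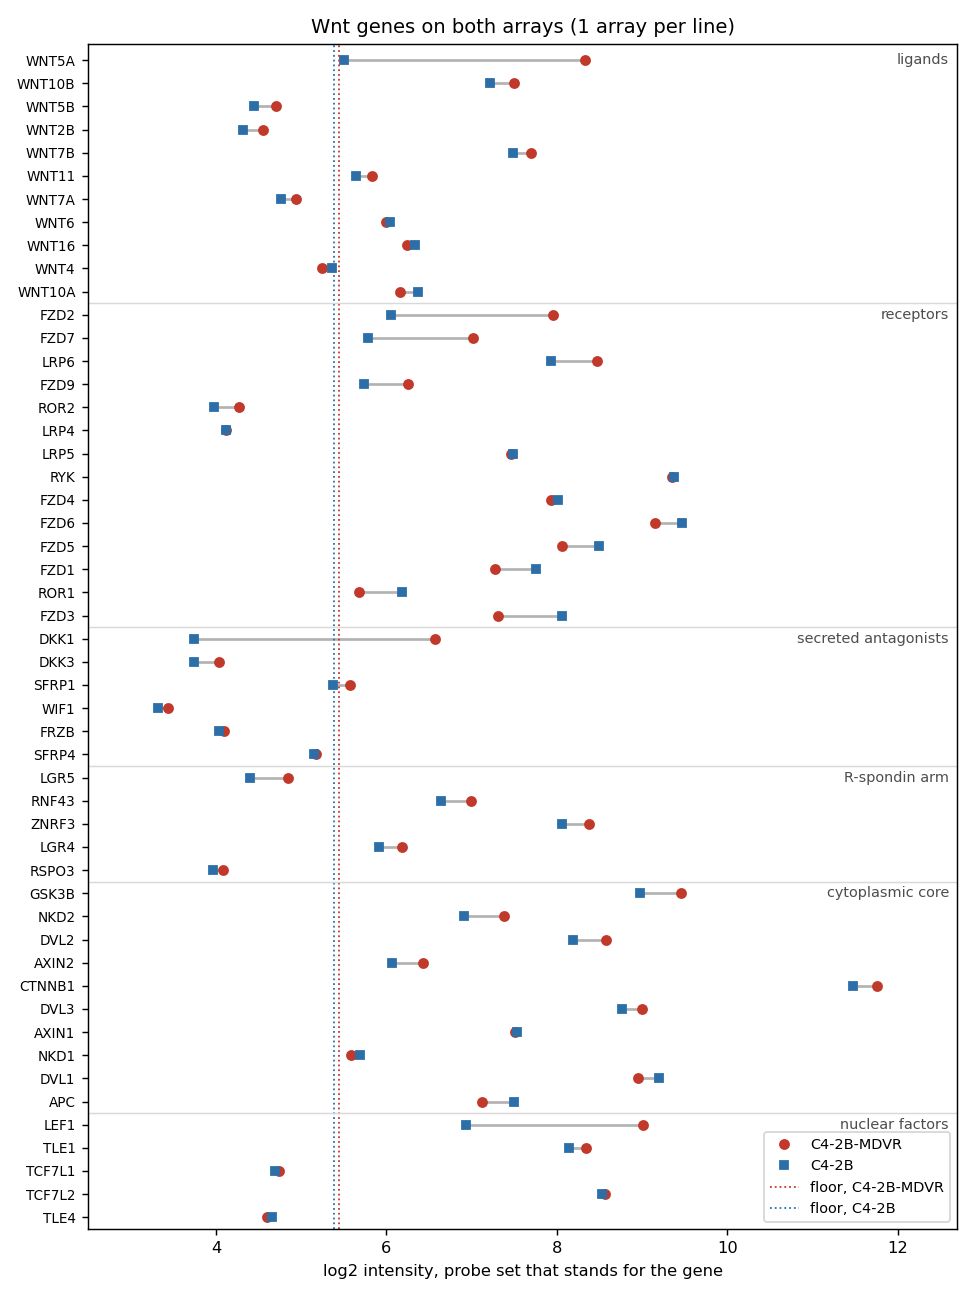
Log2 intensity (horizontal axis) of the probe set that stands for each of the 51 measured Wnt genes, with C4-2B-MDVR as red circles and C4-2B as blue squares, 1 array each, and the floors as dotted lines. Long bars mark WNT5A, FZD2, FZD7, DKK1 and LEF1, and the differences of the other genes above the floor lie between -0.75 and 0.54. Positions of different genes are not comparable levels.

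By probe set, 74 of the 129 were above the floor, of which 7 were 2-fold or more higher and 1 lower. That is 9.46% higher and 1.35% lower, where all 24087 named probe sets above the floor gave 2.75% higher and 4.06% lower. These shares too are a description, since the genes were chosen with earlier results known. The 7 higher probe sets were 2 each of WNT5A and FZD7 and 1 each of FZD2, DKK1 and LEF1, and the lower one belonged to FZD3. Probe sets of 1 gene share a target and are not replicates. For the 22 genes with 2 or more probe sets above the floor, the range of differences within a gene was under 0.5 for 16 genes and had a median of 0.40.

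**Figure D2:**
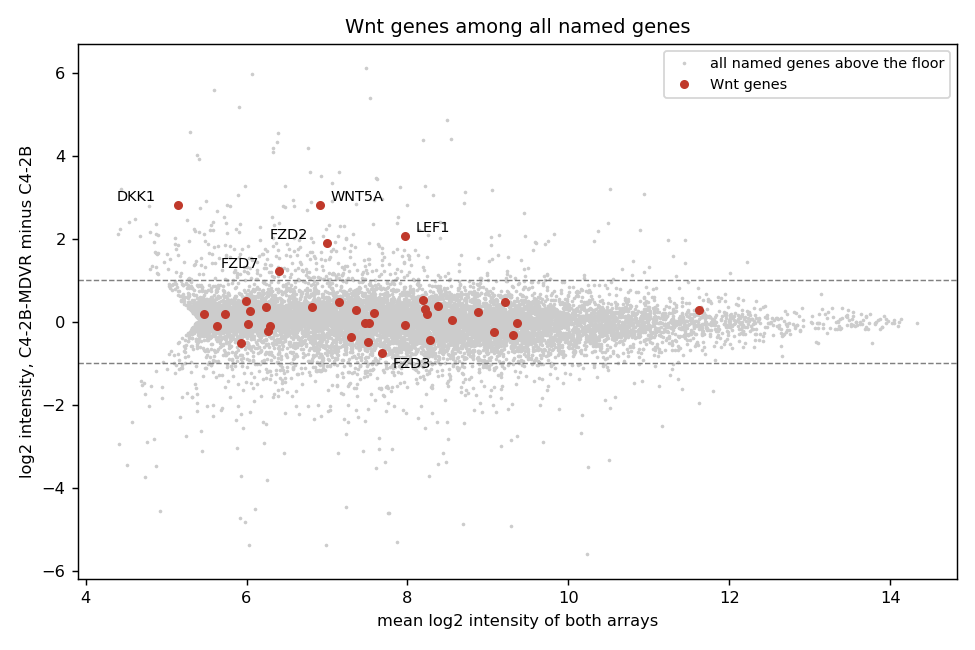
Difference in log2 intensity, C4-2B-MDVR minus C4-2B (vertical axis), against the mean log2 intensity of both arrays (horizontal axis) for 13437 named genes above the floor in grey, with 37 Wnt genes in red and dashed lines at 2-fold. The 5 labelled genes over the upper line range from 1.23 to 2.83, and FZD3 is the lowest Wnt gene at -0.75.

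Calls were also counted in a dimmer and a brighter class of genes, set by the brighter value of each gene. Of all named genes above the floor whose brighter value lay under the median of such genes, an intensity of 236, 3.48% were 2-fold or more higher and 2.56% lower, and of the brighter ones 2.86% were higher and 4.44% lower. Of the Wnt genes, 2 of 20 in the dimmer class (DKK1 and FZD7) and 3 of 17 in the brighter class (WNT5A, FZD2 and LEF1) were 2-fold or more higher. The last 3 entered the brighter class by their C4-2B-MDVR values. In C4-2B they had 45.1, 66.3 and 122, all under 236, so the classes do not separate brightness from the difference itself.

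Among the ligands WNT5A alone was beyond 2-fold. WNT5A is known mainly for beta-catenin-independent signalling through ROR and Frizzled receptors. Its brighter probe set had an intensity of 321 in C4-2B-MDVR and 45.1 in C4-2B, which was just over the floor. The difference was 2.83, or 7.11-fold higher. The other WNT5A probe set had 83.9 in C4-2B-MDVR and 16.0 in C4-2B, a difference of 2.39. As the C4-2B value of that probe set lay under the floor, the bound was at least 2.00-fold higher. Both probe sets therefore read WNT5A higher in C4-2B-MDVR.

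The other 6 ligands above the floor lay between -0.21 and 0.29. WNT10B, a ligand of the canonical branch, had 181 in C4-2B-MDVR and 148 in C4-2B. WNT7B, which signals through Frizzled and LRP receptors, had 207 in C4-2B-MDVR and 179 in C4-2B, a difference of 0.21, and its second probe set differed by -0.18. WNT11, known for noncanonical signalling, had 57.1 in C4-2B-MDVR and 49.8 in C4-2B. By the probe sets that stood for them, these 3 ligands were on the higher side by no more than 0.29. WNT10A, with 71.4 in C4-2B-MDVR and 82.9 in C4-2B, was the lowest of the ligands. WNT16 differed by -0.09 and WNT6 by -0.05. WNT2B, WNT4, WNT5B and WNT7A were under the floor on both arrays, so WNT5B, the closest relative of WNT5A, gave no reading of its direction.

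Of the Frizzled receptors, the membrane proteins that Wnt ligands bind, FZD2 and FZD7 passed 2-fold on the higher side, and FZD3 had 1 probe set 2-fold or more lower. FZD2, which is known as a receptor for WNT5A, had 248 in C4-2B-MDVR and 66.3 in C4-2B, a difference of 1.90 or 3.74-fold higher. A second probe set had 77.4 in C4-2B-MDVR and 45.6 in C4-2B, a difference of 0.76, so the size of the FZD2 difference depended on the probe set. FZD7, its close relative, had 129 in C4-2B-MDVR and 55.2 in C4-2B, a difference of 1.23 or 2.34-fold higher. The second FZD7 probe set had 126 in C4-2B-MDVR and 34.4, under the floor, in C4-2B, so that it was at least 3.01-fold higher with a measured difference of 1.87. Both FZD7 probe sets and the dimmer one of FZD2 have names ending in _s_at, by which the manufacturer marks probes that can match more than 1 transcript. The same holds for the brighter WNT5A probe set and for all 3 LEF1 probe sets.

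FZD1, the third gene of that subfamily, did not share this direction. It had 155 in C4-2B-MDVR and 215 in C4-2B, a difference of -0.48, and a second probe set differed by 0.17. FZD3, a receptor known for planar cell polarity and axon guidance, was read by 3 probe sets above the floor. The one that stood for the gene had 158 in C4-2B-MDVR and 267 in C4-2B, a difference of -0.75. Another had 123 in C4-2B-MDVR and 269 in C4-2B, a difference of -1.12 and thus 2-fold or more lower. The third differed by -0.08, so these 3 probe sets were all below 0 and disagreed on the size. A further FZD3 probe set was under the floor on both arrays, with 14.4 in C4-2B-MDVR and 41.6 in C4-2B, a measured difference of -1.53.

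FZD6, the relative of FZD3, had 571 in C4-2B-MDVR and 705 in C4-2B, a difference of -0.31. FZD5 had 267 in C4-2B-MDVR and 360 in C4-2B, a difference of -0.43, with a second probe set at 0.25. FZD9 had 76.1 in C4-2B-MDVR and 53.3 in C4-2B, a difference of 0.52, and FZD4, which also binds the ligand norrin, differed by -0.08. These 4 genes were within 2-fold.

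**Figure D3:**
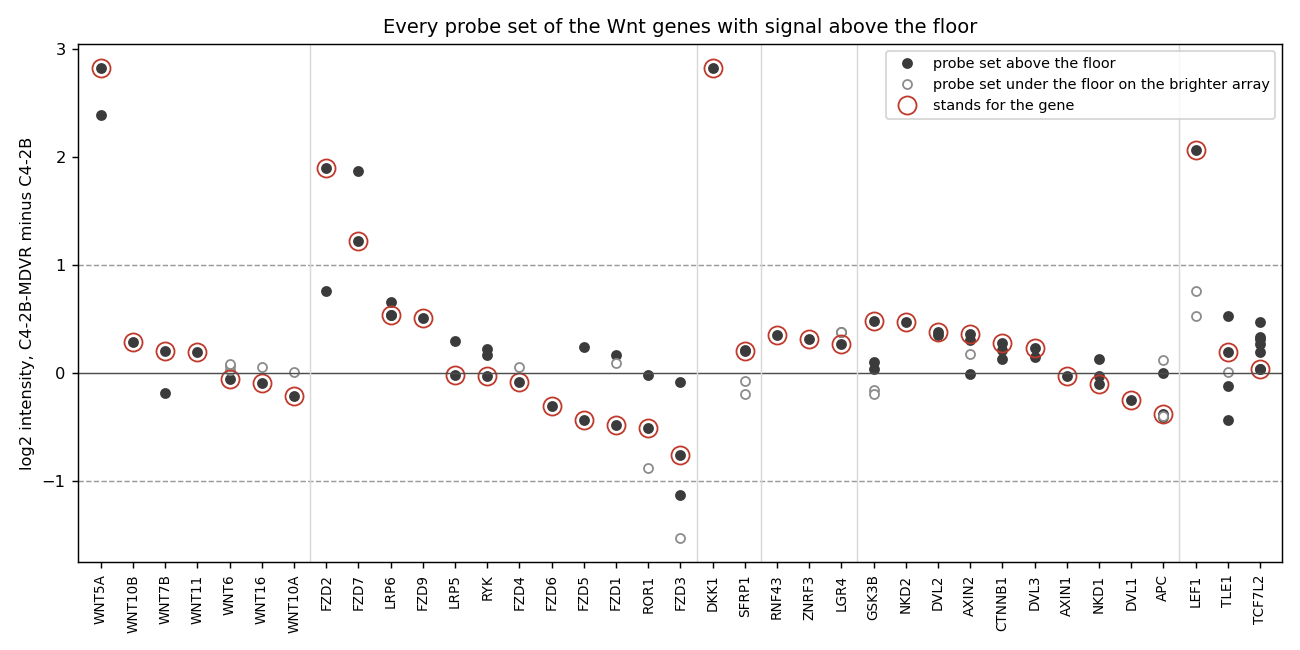
Difference in log2 intensity, C4-2B-MDVR minus C4-2B (vertical axis), for every probe set of the 37 Wnt genes above the floor (horizontal axis, in groups by role), with filled points above the floor, open points under it on the brighter array, red rings on the probe set that stands for the gene and dashed lines at 2-fold. Both probe sets of WNT5A and of FZD7 lie over the upper line, while those of FZD2 span 0.76 to 1.90 and those of FZD3 above the floor -1.12 to -0.08.

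Co-receptors and receptors outside the Frizzled family were within 2-fold. LRP6, which is phosphorylated in the active canonical receptor complex, had 354 in C4-2B-MDVR and 244 in C4-2B. Its 3 probe sets differed by 0.54, 0.54 and 0.66, so all lay on the same side. Its relative LRP5 had 176 in C4-2B-MDVR and 178 in C4-2B. RYK, a receptor with a Wnt-binding domain of the WIF type, had 652 in C4-2B-MDVR and 662 in C4-2B. ROR1, a receptor tyrosine kinase that binds WNT5A, had 51.0 in C4-2B-MDVR and 72.4 in C4-2B, a difference of -0.50, while a second probe set differed by -0.02. ROR2, the second receptor of that kind, was under the floor on both arrays, as was LRP4. WNT5A was thus higher with no 2-fold difference in the ROR and RYK receptors that could be read.

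DKK1, a secreted antagonist that binds LRP5 and LRP6 and that is itself a known beta-catenin target, was beyond 2-fold. Its single probe set had 94.9 in C4-2B-MDVR and 13.3 in C4-2B. The measured difference was 2.83, and since the C4-2B value was under the floor, DKK1 was at least 2.26-fold higher. SFRP1, which binds Wnt ligands outside the cell, had 47.5 in C4-2B-MDVR and 41.3 in C4-2B, close to the floor on both arrays. The antagonists DKK3, SFRP4, FRZB and WIF1 were under the floor on both arrays, DKK3 in all of its 6 probe sets. Of the 6 secreted antagonists, 2 could therefore be read, and DKK1 was the 1 beyond 2-fold.

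The R-spondin arm sets how many Frizzled receptors stay on the cell surface: RNF43 and ZNRF3 are ubiquitin ligases that remove them, and R-spondins acting through LGR receptors hold these ligases back. RNF43 had 127 in C4-2B-MDVR and 99.5 in C4-2B, a difference of 0.35. ZNRF3 had 333 in C4-2B-MDVR and 267 in C4-2B, a difference of 0.32. LGR4 had 72.6 in C4-2B-MDVR and 60.1 in C4-2B, a difference of 0.27. All 3 lay above 0 and within 2-fold, and the stem cell marker LGR5 and the ligand RSPO3 were under the floor on both arrays.

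All 10 cytoplasmic genes were above the floor and within 2-fold, between -0.37 and 0.49. Of all 13437 named genes above the floor, 12541 were within 2-fold too, so this count lay near the general share. CTNNB1, the gene for beta-catenin, had 3468 in C4-2B-MDVR and 2856 in C4-2B, and its 3 probe sets differed by 0.13 to 0.28. GSK3B, the kinase that marks beta-catenin for breakdown, had 705 in C4-2B-MDVR and 503 in C4-2B, a difference of 0.49, with its other probe sets above the floor at 0.04 and 0.11. With all GSK3B probe sets averaged, those under the floor included, its difference was 0.06. Both genes were within 2-fold. APC, a scaffold of the same complex, had 139 in C4-2B-MDVR and 180 in C4-2B, a difference of -0.37. The scaffold AXIN1 had 182 in C4-2B-MDVR and 185 in C4-2B. These arrays measure mRNA, and the stability of beta-catenin protein, on which the canonical branch turns, was not measured.

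The Dishevelled proteins relay the signal from Frizzled receptors. DVL2 had 380 in C4-2B-MDVR and 292 in C4-2B, DVL3 had 511 in C4-2B-MDVR and 435 in C4-2B, and DVL1 had 495 in C4-2B-MDVR and 587 in C4-2B. Their differences were 0.38, 0.23 and -0.25. NKD2, which binds Dishevelled, had 167 in C4-2B-MDVR and 120 in C4-2B, a difference of 0.48. AXIN2 and NKD1 are feedback inhibitors that beta-catenin signalling induces in many cells. AXIN2 had 85.9 in C4-2B-MDVR and 66.9 in C4-2B, a difference of 0.36, with its other probe sets above the floor at 0.31 and -0.01. NKD1 had 47.9 in C4-2B-MDVR and 51.4 in C4-2B, a difference of -0.10. AXIN2 and NKD1 were both within 2-fold.

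Of the nuclear factors LEF1 was beyond 2-fold. LEF1 binds beta-catenin and DNA and is itself a known target of the pathway. Its probe set above the floor had 515 in C4-2B-MDVR and 122 in C4-2B, a difference of 2.07 or 4.21-fold higher. The other 2 LEF1 probe sets were under the floor on both arrays and differed by 0.77 and 0.53, and with all 3 averaged the difference was 1.12. TCF7L2, the related factor, had 380 in C4-2B-MDVR and 371 in C4-2B, and its 7 probe sets differed by 0.04 to 0.48. TLE1, a co-repressor of TCF and LEF factors, had 324 in C4-2B-MDVR and 283 in C4-2B, a difference of 0.20, and its 4 probe sets above the floor spanned -0.43 to 0.53. TCF7L1 and the co-repressor TLE4 were under the floor on both arrays.

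Beyond these genes, 4 wider lists of pathway genes were read in the same way. Among ligands, secretion factors, receptors and antagonists outside the set, 22 of 36 measured genes reached the floor, with a median of 0.26. The median of all named genes above the floor was 0.04. Of the 22, 3 (13.6%) were 2-fold or more higher and 0 lower, beside 3.17% and 3.50% of all named genes above the floor. By bound 2 were higher, beside 2.76% of all named genes. WLS, the carrier that brings Wnt ligands to the cell surface, had 143 in C4-2B-MDVR and 20.3 in C4-2B, a difference of 2.82 and at least 3.41-fold higher. Its other probe set above the floor differed by 2.41. GPC3, a glypican of the cell surface, had 201 in C4-2B-MDVR and 90.0 in C4-2B, a difference of 1.16 that was 0.59 with its probe sets averaged. APCDD1, a membrane inhibitor of Wnt signalling, had 43.6 in C4-2B-MDVR and 17.8 in C4-2B, so its measured difference of 1.29 came to at least 1.04-fold. RSPO4, an R-spondin ligand, had 43.9 in C4-2B-MDVR, just over the floor, and 26.0 in C4-2B, under it, so its measured difference of 0.76 came to at least 1.05-fold.

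In the list of destruction complex subunits, kinases and beta-catenin partners, 40 of 45 measured genes reached the floor, with a median of -0.11. Of the 40, 0 were beyond 2-fold in either direction, beside 3.17% higher and 3.50% lower of all named genes above the floor. The ubiquitin ligase subunit FBXW11, which recognises phosphorylated beta-catenin, had 348 in C4-2B-MDVR and 646 in C4-2B, a difference of -0.89. Its paralog BTRC had 113 in C4-2B-MDVR and 68.8 in C4-2B, a difference of 0.71. The 3 BTRC probe sets above the floor spanned -0.20 to 0.71, so they disagreed on the direction. The co-repressor TLE2 differed by 0.79, and PYGO1, a nuclear partner of beta-catenin, by -0.63 with a second probe set at 0.07. Single probe sets that did not stand for their genes went further, up to 1.30 for the co-repressor TLE3 and down to -1.33 for TBL1XR1, both named after their values were seen.

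In the polarity and calcium branches 41 of 44 measured genes reached the floor, with a median of 0.08. Of the 41, 2 (4.88%) were 2-fold or more higher and 3 (7.32%) lower, beside 3.17% and 3.50% of all named genes above the floor. PTK7, a receptor-like protein of planar cell polarity, had 196 in C4-2B-MDVR and 86.4 in C4-2B, a difference of 1.18 that was 0.62 with its probe sets averaged. The polarity protein VANGL2 had 52.4 in C4-2B-MDVR and 16.3 in C4-2B, at least 1.25-fold higher with a measured difference of 1.69. RHOU, a small GTPase, had 218 in C4-2B-MDVR and 951 in C4-2B, a difference of -2.12, while a second probe set differed by -0.91. The phospholipase gene PLCB1 had 19.9 in C4-2B-MDVR, which was under the floor, and 88.4 in C4-2B, so it was at least 2.03-fold lower. PLCB4 (-1.16) is named because it completes the count and was chosen after its value was seen. So were PPP3CA and NFATC1, within 2-fold by the probe sets that stood for them but with others at -1.08 and 1.26.

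Of genes known in other cells as beta-catenin targets, 34 of 48 measured genes reached the floor, with a median of 0.31. Of the 34, 3 (8.82%) were 2-fold or more higher and 2 (5.88%) lower, beside 3.17% and 3.50% of all named genes above the floor. BAMBI, a decoy receptor of the TGF-beta family, had 4456 in C4-2B-MDVR and 481 in C4-2B, a difference of 3.21 or 9.26-fold higher. The transcription factor SOX9 had 233 in C4-2B-MDVR and 34.0 in C4-2B, a difference of 2.77 and at least 5.56-fold higher. APCDD1, which this list shares with the first, was the third higher gene. SNAI2, a repressor known from epithelial to mesenchymal transition, had 14.8 in C4-2B-MDVR and 129 in C4-2B, so it was at least 2.97-fold lower. TNFRSF19, a receptor of the tumour necrosis factor family, had 230 in C4-2B-MDVR and 1032 in C4-2B, a difference of -2.17, with its probe sets from -2.17 to -0.90. RUNX2, chosen after its values were seen, differed by 0.32 with a second probe set at -2.86. The called targets thus lay on both sides, as did the called genes among all named genes. Of the 34 targets, 24 were above 0, beside 7409 of 13437 named genes above the floor, whose median was 0.04. These counts are a description, since the list was chosen with earlier results known.

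**Figure D4:**
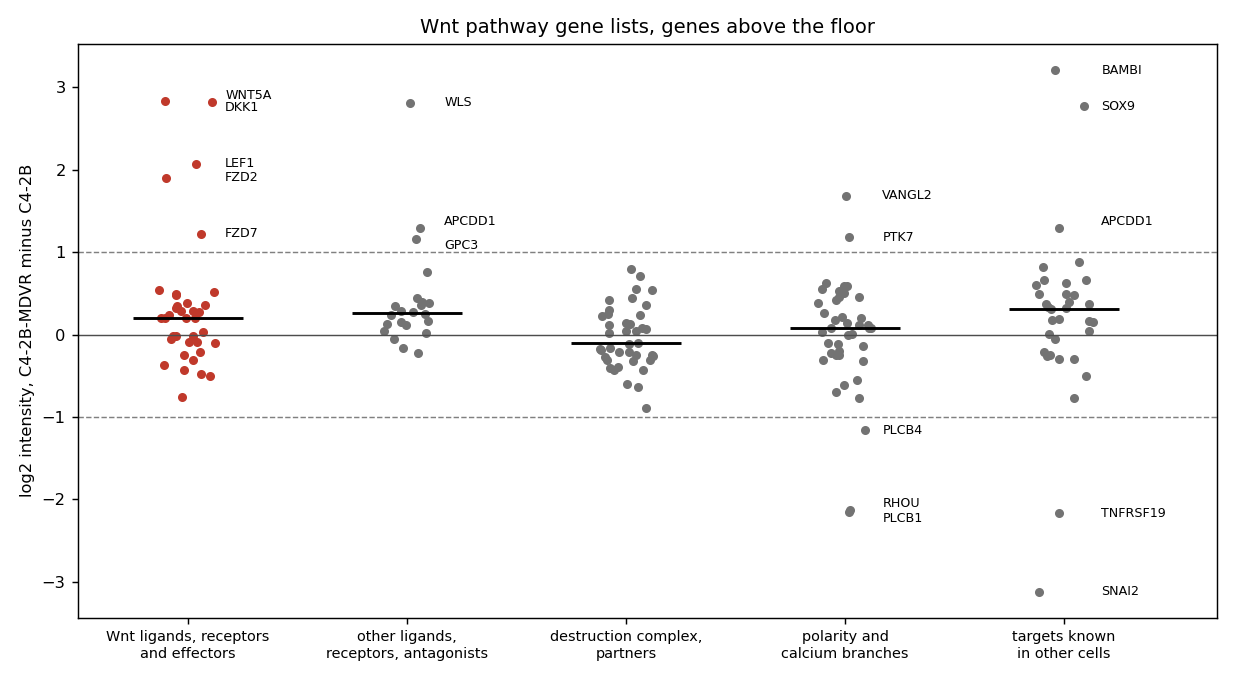
Difference in log2 intensity, C4-2B-MDVR minus C4-2B (vertical axis), for genes above the floor in the Wnt set (red) and in 4 wider lists (grey), 1 point per gene, with black bars at the medians, dashed lines at 2-fold and names of the genes beyond them. The Wnt set and the list of other ligands, receptors and antagonists hold genes over the upper line and 0 under the lower one, and in the destruction complex list the probe sets that stand for the genes lie within 2-fold.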

How the data were processed

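Total RNA of 1 culture of each line was isolated with Trizol, amplified with a whole-transcript kit, fragmented and biotin-labelled, per the labels' protocols. Deposited values were intensities, 1 per probe set and array, on a linear scale as their range of 4.31 to 20839.7 shows. How the authors corrected background, normalized and summarized them is not given in the sources used here. Log2 was taken and nothing else was changed. The table held 0 sample columns besides these.

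Gene names came from the array's annotation of 2016, in which 41097 carry 1 gene symbol, 1801 carry several and name no gene here, and 11777 probe sets are unlisted. Entrez identifiers were set against NCBI RefSeq genes of GRCh38.p14, where 41043 matched and 0 symbols changed. No build is named for the array values, so coordinates are given for promoter windows only.

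The floor, the threshold of 2-fold and the probe set per gene are defined at first use. A bound ("at least") sets the brighter value against the floor of the dimmer array. All 55 genes could be named. From each wider list the 4 genes with the largest difference above the floor were named. The members and lists were chosen with earlier results of these data known. Alternatives were 3 scalings, 2 other rules for the probe set of a gene, 3 floors, raised floors, 2 thresholds and shared-symbol probe sets. The steps were tested on simulated data, with differences planted only in genes well over the floor on both arrays. The recovery of differences with a value near or under the floor was therefore not tested. The number of arrays, 1 per line, limits the precision.

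As a gauge of the arrays, 27 bacillus control probe sets, all under the floor, had differences with an SD of 0.13 over probe sets, which is no replicate error. Pearson's r of log2 intensities over all probe sets, which are not independent, was 0.978. Python 3.11.15, numpy 2.4.6, pandas 2.3.3, statsmodels 0.14.6 and matplotlib 3.10.9 were used.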

Additional observations from a re-analysis of the deposited data

How the results depend on the processing

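No paired analysis was possible because each line had 1 array, and for the same reason no array could be left out. With median centring, quantile normalization or loess, the 5 higher Wnt genes, 0 lower genes, 7 higher probe sets and 1 lower probe set stayed at these counts, the Wnt genes above 0 numbered 21, 25 and 23 of 37, and the median of all named genes lay between -0.01 and 0.06. The median of the Wnt genes ranged from 0.15 to 0.23 over all settings. Higher genes numbered 3 with a floor at the 75th percentile, which DKK1 and FZD7 did not reach, and 3 with probe sets named _s_at or _x_at left out, since LEF1 and FZD7 have no other kind. With the floor at the 75th percentile 3 higher probe sets were left. Lower probe sets numbered 2 without any floor, 2 when it lay at the 25th percentile and 2 at a 1.5-fold threshold, and 0 at a 3-fold one. Lower genes numbered 1 (FZD3) at 1.5-fold. At 3-fold FZD7 was no longer called. Of 96 wider list counts 82 moved by no more than 1.5 times, those that stayed at 0 included, and 14 moved further. Higher genes among the other ligands, receptors and antagonists fell from 3 to 1 with probe sets averaged, and to 1 with the floor at the 75th percentile. Higher genes of the polarity and calcium list fell from 2 to 1 in both settings. In all settings 0 called genes named from either set changed sign. By bound VANGL2 was at 0.32, RSPO4 at 0.07 and APCDD1 at 0.06.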

Other observations

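The probe sets that name WNT3 or FZD8 together with another gene entered no comparison. For WNT3, a canonical ligand, which shares its probe sets with an uncharacterised locus, the brightest had 63.9 in C4-2B-MDVR and 43.9 in C4-2B, a difference of 0.54, and another above the floor differed by 0.26. The remaining WNT3 probe set was under the floor on both arrays, with 33.6 in C4-2B-MDVR and 16.8 in C4-2B, a measured difference of 0.997. For the receptor FZD8, which shares its probe sets with a microRNA gene, the 1 above the floor had 54.1 in C4-2B-MDVR and 56.4 in C4-2B, a difference of -0.06, and 2 under the floor on both arrays differed by -0.44 and -0.40. None of those above the floor was beyond 2-fold, and which of the paired genes they read cannot be told apart.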
